A study of Homo sapiens with 4 samples.

Results

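Genes that regulate fetal globin expression were examined for GATA2 occupancy in K562, a human chronic myeloid leukaemia cell line with erythroid features. The set holds 9 genes, BCL11A, ZBTB7A, IKZF1, SOX6, NFIX, KLF1, MYB, HBS1L and LIN28B. Each gene body in GENCODE release 44 was extended by 50 kb on each side, with MYB and HBS1L joined in 1 window because the DNA between them carries MYB enhancers, which gave 8 windows with a total length of 2313.3 kb on hg38. A ChIP-seq peak, an interval where reads pile up after pull-down with an antibody, belonged to the set if it overlapped a window. The set holds 50 of the 31777 peaks of asynchronous cells and 5 of the 1648 peaks of mitotic cells.

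Both conditions used K562 cells and the same antibody against endogenous GATA2, after fixation with disuccinimidyl glutarate and formaldehyde. The asynchronous library came from cells growing without arrest, and the mitotic library from cells that were arrested with nocodazole, which blocks spindle formation, then fixed and sorted for MPM-2, a mark of mitotic phosphoproteins. Sorts of several rounds were pooled, with asynchronous cells stated to be below 10%, and the part of these cells in the mitotic peaks was not tested. Each condition has 1 library, so no difference between the conditions has a replicate check. The lists give the position of each peak and no height, score or read count. The depth of the libraries is therefore unknown here, and a gene without a listed peak may still hold GATA2 below the limit of detection. The cell type could not be checked against expression markers, since the lists hold no expression values.

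In red cell precursors, the change from fetal to adult haemoglobin depends on repressors of the γ-globin genes. BCL11A and ZBTB7A (also known as LRF) bind at the γ-globin promoters and recruit corepressors, KLF1 activates adult β-globin and the genes for these repressors, and MYB is required for progenitor growth and delays maturation. LIN28B, an RNA-binding protein of fetal cells, lowers let-7 microRNAs and BCL11A protein. GATA2 is a zinc finger factor of stem and progenitor cells that binds the core GATA, often beside an E-box bound by the TAL1 complex, and gives way to GATA1 as erythroid cells mature. A site with GATA2 in both interphase and mitosis is called bookmarked, and here an asynchronous peak was counted as such if it shared at least 1 base with a mitotic peak.

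Of the 8 windows, 7 held an asynchronous peak and 3 a mitotic peak. The 5 mitotic peaks lay in the windows of MYB-HBS1L (2), NFIX (2) and SOX6 (1). Over the windows of all 20033 protein-coding genes, 76.0% held an asynchronous and 11.7% a mitotic peak. Those are windows of single genes and were not matched for length. The 8 windows include 1 that joins MYB and HBS1L and 1 of 873.1 kb at SOX6, and a longer window has more room for a peak. Each of the 5 mitotic peaks overlapped a different asynchronous peak, so 5 of the 50 asynchronous peaks were bookmarked, or 10.0% (95% exact binomial interval 3.33% to 21.8%). The share over the whole asynchronous list was 5.04%, inside this interval. Among all mitotic peaks 97.5% overlapped an asynchronous peak, and none of the 5 in these windows lay apart from one. The intervals cover counting error over peaks only, and no test against the rest of the genome was made.

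**Figure D1:**
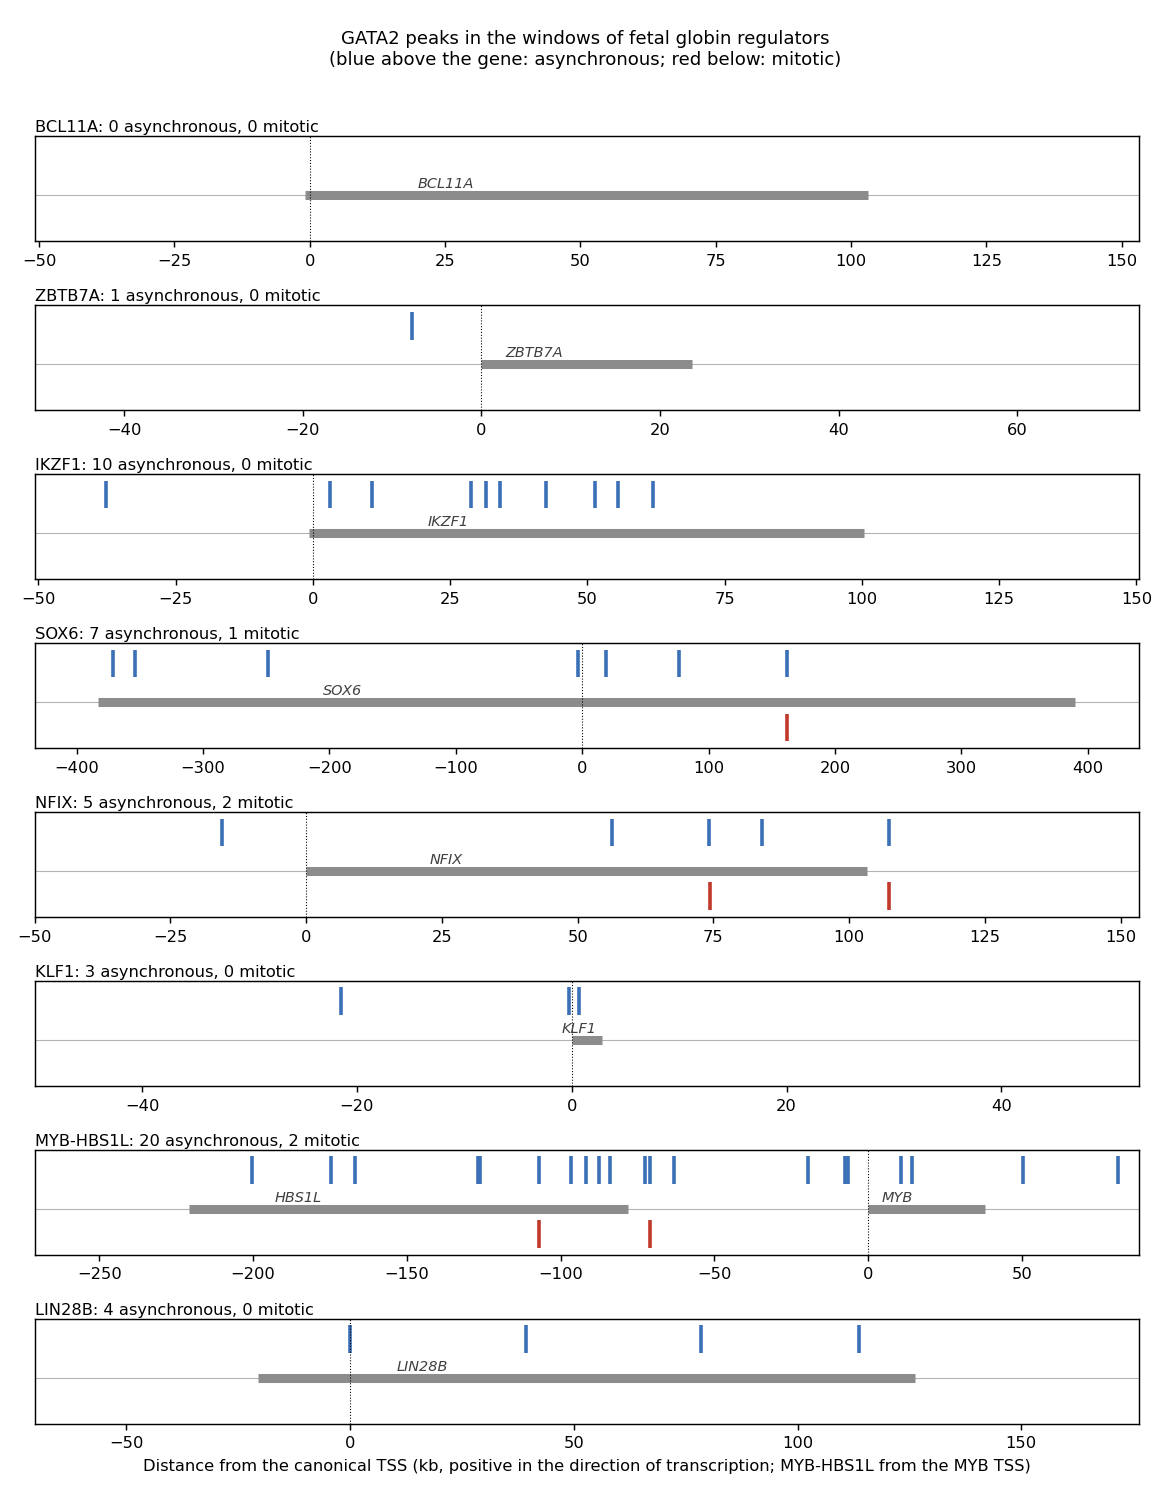
Asynchronous (blue, above the gene) and mitotic (red, below) GATA2 peaks in the 8 windows, by distance in kb from the canonical transcription start site (of MYB in the joined window), positive in the direction of transcription; grey bars are the annotated genes and the dotted line is the start site. The blue marks are most numerous in the MYB-HBS1L window (20) and in IKZF1 (10), the BCL11A panel has no mark, and each red mark stands under a blue one.

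The sequences of 3 bookmarked sites are shown first because they carry mitotic signal of the set. Capitals mark GATA strings, which are AGATAA or AGATAG with A or T as the first letter, on either strand and counted without overlap. They also mark the CTG of a GATA:E-box composite, defined as CTG with GATAA after a gap of 8 bases. All sequences are the hg38 plus strand, limited to the stretch of at most 300 bases with most composites and GATA strings outside UTRs.
MYB-HBS1L, mitotic peak within the HBS1L gene, chr6:135074076-135074346: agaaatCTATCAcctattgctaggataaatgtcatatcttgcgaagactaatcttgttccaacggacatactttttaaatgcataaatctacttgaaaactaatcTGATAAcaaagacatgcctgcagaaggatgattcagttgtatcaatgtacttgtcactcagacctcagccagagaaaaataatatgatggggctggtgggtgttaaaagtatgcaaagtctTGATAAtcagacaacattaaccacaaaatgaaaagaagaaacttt
MYB-HBS1L, mitotic peak between the genes, chr6:135110280-135110579: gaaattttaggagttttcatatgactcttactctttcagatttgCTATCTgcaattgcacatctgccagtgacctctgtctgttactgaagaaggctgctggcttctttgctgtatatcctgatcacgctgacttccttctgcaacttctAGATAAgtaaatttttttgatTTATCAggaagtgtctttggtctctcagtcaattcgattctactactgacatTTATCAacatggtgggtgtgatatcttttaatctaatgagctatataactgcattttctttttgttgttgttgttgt
SOX6, mitotic peak in intron 4, chr11:16194022-16194321: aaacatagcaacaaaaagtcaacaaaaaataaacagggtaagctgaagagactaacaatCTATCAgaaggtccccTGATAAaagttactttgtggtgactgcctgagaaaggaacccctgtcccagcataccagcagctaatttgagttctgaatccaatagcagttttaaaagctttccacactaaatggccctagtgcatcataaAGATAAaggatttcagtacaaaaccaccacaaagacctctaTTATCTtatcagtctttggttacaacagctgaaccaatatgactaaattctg

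These stretches held 3, 4 and 4 GATA strings in the order shown, and none has the composite. The first MYB-HBS1L site also holds the RUNX string AACCACA, close to its last GATA string, and the other has 2 matches to the ETS string AGGAAGT. RUNX and ETS factors are haematopoietic regulators, and a match is a description of the sequence, not a bound site.

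MYB encodes a transcription factor of haematopoietic progenitors and HBS1L, its neighbour on the opposite strand, a factor that rescues stalled ribosomes. The DNA between them holds distal enhancers of MYB in which common variants are associated with fetal haemoglobin in adults. The joined window, chr6:134910378-135269173, had the most peaks of the 8, with 20 asynchronous and 2 mitotic peaks in 358.8 kb. That is 5.57 asynchronous peaks per 100 kb, above 95.4% of the windows of all protein-coding genes and above 87.9% of those on chromosome 6. These are windows of single genes, whereas this window joins MYB, HBS1L and the DNA between them. Chromosome 6 as a whole had 1.41 asynchronous peaks per 100 kb, against 1.03 over the genome.

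The peaks were spread over both genes and the DNA between them. The HBS1L gene (ENSG00000112339, chr6:134960378-135103056, minus strand) held 10 of them, the 78.2 kb between the genes 6, the MYB gene (ENSG00000118513, chr6:135181308-135219173, plus strand) 2, and the 50 kb beyond the 3′ end of MYB 2. None lay beyond the 3′ end of HBS1L. By the nearest protein-coding start site, 13 peaks were closest to HBS1L, 6 to MYB and 1 to AHI1. Both mitotic peaks of the window were nearest to an HBS1L start site and none to MYB. The 8 asynchronous peaks centred between 107.1 and 63.1 kb upstream of the MYB start site stood within 44.6 kb, and both bookmarked peaks were among them.

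The bookmarked site between the genes is an asynchronous peak of 747 bp at chr6:135110119-135110865, centred 70.8 kb upstream of the MYB start site. Its mitotic peak of 442 bp, chr6:135110213-135110654, lay wholly inside it and covered 59.2% of it. The other site lies 107.1 kb upstream of MYB, in the HBS1L gene but 19.4 kb upstream of the start of its canonical transcript. There, the asynchronous peak of 615 bp, chr6:135073877-135074491, contained a mitotic peak of 271 bp, or 44.1% of its width. The asynchronous peaks held 4 and 5 GATA strings, of which 4 and 3 were in the mitotic intervals.

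The neighbours of these sites had no mitotic peak. An asynchronous peak of 506 bp, chr6:135097139-135097644, was centred 83.9 kb upstream of MYB with 1 GATA string and 1 RUNX string. A peak of 632 bp at 63.1 kb upstream held 5 GATA strings, as many as the site at 107.1 kb. The bookmarked peaks were not the widest. The 3 widest peaks of the window, 1357, 1084 and 887 bp, were asynchronous only, and the bookmarked ones ranked 4 and 6 of 20 by width.

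The widest of them, chr6:135191359-135192715, lies in intron 5 of MYB, 10.7 kb downstream of its start, and is wider than 99.8% of the asynchronous list. It held 6 GATA strings, and one for each of the CACCC, RUNX and ETS strings. The peak of 1084 bp, chr6:135173209-135174292, is centred 7.56 kb upstream of MYB and had 15 GATA strings, the most of any peak in the set. In the printed stretch, 11 of these stand in a tract of repeated units, unlike the spaced strings of the bookmarked sites.
MYB, asynchronous-only peak with most GATA strings, chr6:135173288-135173587: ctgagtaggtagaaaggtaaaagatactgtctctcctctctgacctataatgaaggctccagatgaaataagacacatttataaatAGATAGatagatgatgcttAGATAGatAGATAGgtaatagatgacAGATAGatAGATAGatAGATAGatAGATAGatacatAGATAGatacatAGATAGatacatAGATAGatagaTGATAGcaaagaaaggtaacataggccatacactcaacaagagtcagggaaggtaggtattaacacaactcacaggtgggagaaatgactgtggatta

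Of the 9 genes, HBS1L, KLF1 and LIN28B had an asynchronous peak centred within 1 kb of the canonical start site, against 8.26% of all protein-coding genes. HBS1L and KLF1 had 2 such peaks each. Those of HBS1L were 400 bp wide at 221 bp downstream and 488 bp wide at 431 bp upstream of the start. MYB had none as close, and its nearest peak was centred 6.53 kb upstream. None of these peaks at start sites was bookmarked. HBS1L also had a peak of 470 bp in intron 13, chr6:134980845-134981314, with 4 GATA strings and the composite, which lacked a mitotic peak. Its sequence is printed because none of the printed bookmarked sites has the composite.
HBS1L, asynchronous-only peak with the composite, chr6:134980846-134981145: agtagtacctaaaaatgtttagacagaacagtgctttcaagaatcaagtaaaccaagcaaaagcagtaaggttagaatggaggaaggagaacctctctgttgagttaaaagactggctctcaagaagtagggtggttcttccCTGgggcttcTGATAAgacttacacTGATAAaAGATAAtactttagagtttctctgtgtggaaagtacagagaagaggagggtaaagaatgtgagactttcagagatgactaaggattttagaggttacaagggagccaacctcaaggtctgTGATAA

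NFIX encodes a nuclear factor I protein that has been linked to γ-globin silencing. Its window, chr19:12945475-13148796, held 5 asynchronous peaks, of which 2 were bookmarked. That is 40% with a wide interval (5.27% to 85.3%), against 5.04% of the whole list, and the difference was not tested. The gene itself is ENSG00000008441, chr19:12995475-13098796, plus strand. One bookmarked site lies inside it, where an asynchronous peak of 660 bp held a mitotic peak of 258 bp.

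The other bookmarked site of the window belongs to LYL1 by position. LYL1 encodes a basic helix-loop-helix factor related to TAL1. The mitotic peak of 510 bp, chr19:13102481-13102990, was centred 12 bp from a LYL1 start site and beyond the 3′ end of NFIX. It is the only one of the 5 that was wider than the asynchronous peak it met, 427 bp at chr19:13102671-13103097, and 190 bp of it lay outside. Both GATA strings were in the part shared by the 2 peaks. With peaks given to the gene with the nearest start site, NFIX kept 1 mitotic peak.

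The 3 other peaks of the NFIX window were asynchronous only. They were 587 bp wide at 15.5 kb upstream of NFIX and nearest to DAND5, 346 bp wide in intron 2, and 311 bp wide in intron 7. The peak in intron 2 had no GATA string and 2 CACCC strings. GC content in the central 200 bp of the 5 peaks had a median of 61.5%, against 44.5% over all asynchronous peaks.

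SOX6, an SRY-related factor that acts with BCL11A on the globin genes, has the longest window, 873.1 kb (chr11:15916449-16789591). It held 7 asynchronous peaks and 1 mitotic peak, all within the annotated gene (ENSG00000110693, chr11:15966449-16739591, minus strand). At 0.802 peaks per 100 kb, the window lay under the median of 1.41 over all protein-coding genes. The mitotic peak of 402 bp, chr11:16193983-16194384, is in intron 4, 162.4 kb downstream of the canonical start, and overlapped the widest asynchronous peak of the gene, 536 bp at chr11:16193994-16194529, by 391 bp. All 4 GATA strings of the site were in the mitotic interval.

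The 6 other SOX6 peaks were between 180 and 491 bp wide and held 1 to 3 GATA strings each. The nearest to the canonical start was centred 2.98 kb upstream and was 336 bp wide. A group of 3 stood in the part of the gene upstream of the canonical transcript, 248.3, 354.0 and 371.5 kb from its start.

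**Figure D2:**
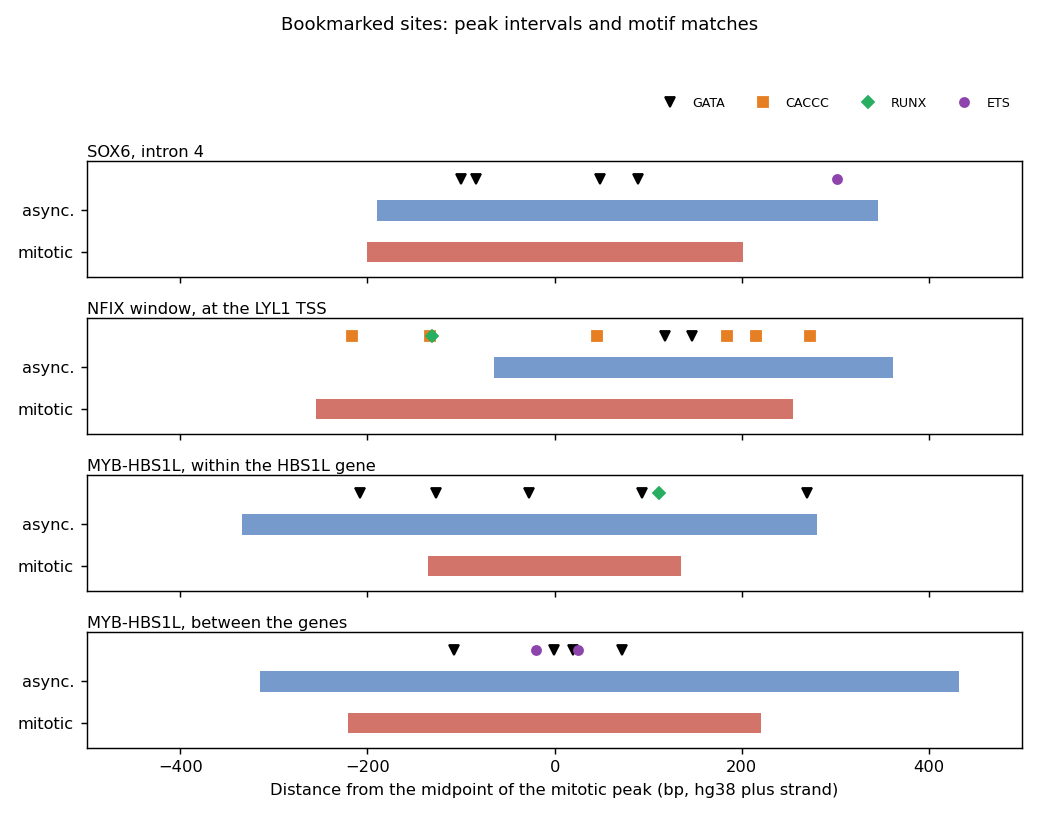
Asynchronous (blue) and mitotic (red) intervals at 4 of the 5 bookmarked sites, by distance in bp from the midpoint of the mitotic peak, with symbols for matches to the GATA, CACCC, RUNX and ETS strings. The mitotic peak lies inside the asynchronous one at both MYB-HBS1L sites, runs 11 bp past it at SOX6 and 190 bp past it at LYL1, and the GATA matches lie on both sides of the mitotic midpoint at SOX6 and MYB-HBS1L and to 1 side at LYL1.

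IKZF1 encodes Ikaros, a zinc finger factor of lymphoid and erythroid cells. Its window, chr7:50254068-50455101, held 10 asynchronous peaks and no mitotic peak, and all 10 were nearest to an IKZF1 start site. At 4.97 per 100 kb its density exceeded that of 93.6% of gene windows. Of these peaks, 7 stood within 33.5 kb in intron 3 of the gene (ENSG00000185811, chr7:50304068-50405101, plus strand), between 288 and 754 bp wide. The peak nearest the canonical start of IKZF1, 268 bp at chr7:50307657-50307924, was centred 3075 bp downstream of it in intron 1 and held 1 GATA string. A count of 0 among 10 peaks allows a bookmarked share of up to 30%, above the 5.04% of the whole list, so a lower share at IKZF1 was not detectable with this number of peaks.

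The widest IKZF1 peak, 754 bp at chr7:50355764-50356517, is centred 51.4 kb downstream of the start, and is wider than any of the 5 bookmarked peaks of the set. It held 3 GATA strings, the composite, an ETS string and an AP-1 string (TGAGTCA, which counts also with C in the centre). In the printed plus strand the composite is reversed, so that its CTG reads as CAG.
IKZF1, asynchronous-only peak with the composite, chr7:50355847-50356146: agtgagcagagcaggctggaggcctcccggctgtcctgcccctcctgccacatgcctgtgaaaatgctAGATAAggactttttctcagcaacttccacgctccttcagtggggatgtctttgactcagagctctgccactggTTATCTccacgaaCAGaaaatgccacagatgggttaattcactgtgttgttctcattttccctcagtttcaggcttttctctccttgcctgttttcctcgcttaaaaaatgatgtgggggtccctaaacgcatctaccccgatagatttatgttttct

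KLF1 encodes the erythroid Krüppel-like factor. The window of KLF1 (ENSG00000105610, chr19:12884422-12887201, minus strand) held 3 asynchronous peaks and no mitotic peak. The widest, 724 bp at chr19:12887066-12887789, covers the start site and is centred 227 bp upstream of it. With 4 GATA strings and 2 composites it had more composites than any other peak of the set, and it was wider than 92.3% of the asynchronous list. A second peak of 476 bp in intron 1 held 3 GATA strings and 3 CACCC strings (CCNCNCCC, the type of sequence that KLF1 binds), and the third, 382 bp with no GATA string, was nearest to SYCE2. The upstream part of the promoter peak with 1 of the composites is shown.
KLF1, asynchronous-only promoter peak, chr19:12887488-12887787: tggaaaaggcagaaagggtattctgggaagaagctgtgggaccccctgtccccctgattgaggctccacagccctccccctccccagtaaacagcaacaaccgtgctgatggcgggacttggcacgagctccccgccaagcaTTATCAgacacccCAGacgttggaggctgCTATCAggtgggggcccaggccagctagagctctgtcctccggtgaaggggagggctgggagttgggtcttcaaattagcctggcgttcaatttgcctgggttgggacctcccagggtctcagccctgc

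LIN28B (ENSG00000187772, chr6:104936616-105083332, plus strand) had 4 asynchronous peaks in its window and no mitotic peak. One of 521 bp, chr6:104956718-104957238, was centred 128 bp upstream of the canonical start and held 2 GATA strings, both of which are in the sequence below. The other 3 lay in introns 2 and 3, and the one of 534 bp in intron 2 had the most GATA strings, 4. The nearest mitotic peak to the LIN28B start was 939.3 kb away.
LIN28B, asynchronous-only promoter peak, chr6:104956801-104957100: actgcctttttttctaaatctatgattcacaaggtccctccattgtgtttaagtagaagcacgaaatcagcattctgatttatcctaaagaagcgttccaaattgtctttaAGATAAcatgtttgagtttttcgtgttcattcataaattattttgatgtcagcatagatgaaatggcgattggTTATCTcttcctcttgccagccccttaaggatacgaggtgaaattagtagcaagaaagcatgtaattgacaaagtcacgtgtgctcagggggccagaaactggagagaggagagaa

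With 50 kb on each side, the windows of the 2 direct repressors of γ-globin held 1 and 0 asynchronous peaks. With 100 kb on each side, ZBTB7A had 2.68 peaks per 100 kb and BCL11A still 0. ZBTB7A (ENSG00000178951, chr19:4043303-4066899, minus strand) had 1 asynchronous peak in its window, 232 bp at chr19:4074517-4074748, centred 7.73 kb upstream of its start, with 2 GATA strings. BCL11A (ENSG00000119866, chr2:60450520-60554467, minus strand) had none in either list as used here, and whether the lists are complete over this window was not tested. The asynchronous peak nearest to its start, chr2:60806950-60807560, was centred 253.6 kb upstream and the nearest mitotic peak 734.6 kb away. Of all protein-coding gene windows, 23.97% had no asynchronous peak.

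**Figure D3:**
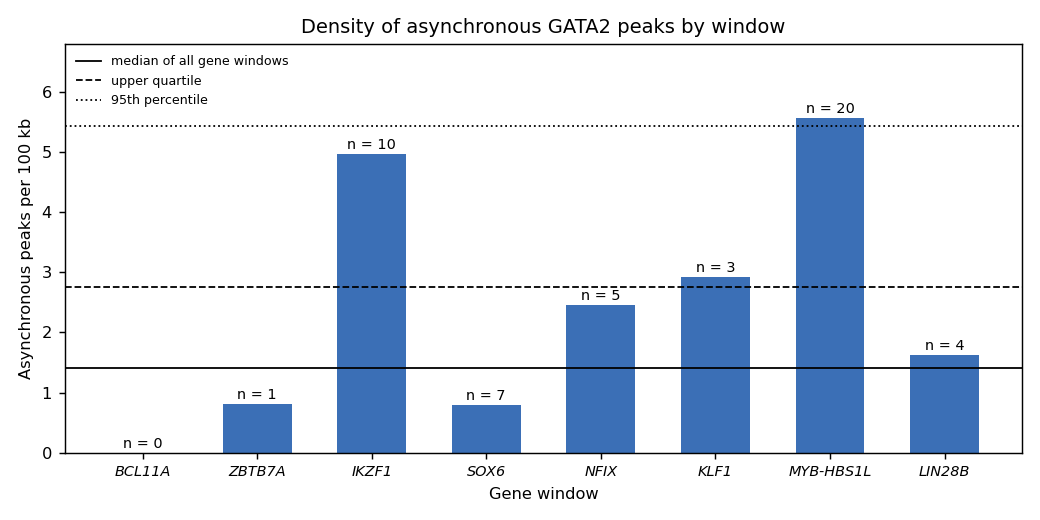
Asynchronous GATA2 peaks per 100 kb (y axis) in each window, with the number of peaks above each bar; lines give the median (1.41), upper quartile (2.76) and 95th percentile (5.44) over the windows of all protein-coding genes. The MYB-HBS1L bar, the only one of a joined window, reaches the 95th percentile, IKZF1 stands just under it, and SOX6, ZBTB7A and BCL11A are under the median.

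Peak width, the one measure of each peak in the lists, had a median of 463.5 bp over the 50 asynchronous peaks of the set, with quartiles of 339.2 and 545.8 bp. The whole list had a median of 378 bp and quartiles of 267 and 518 bp. The 5 bookmarked peaks were 427, 536, 615, 660 and 747 bp wide, and the 45 asynchronous-only peaks ran from 180 to 1357 bp with a median of 423 bp. The groups overlapped, with wide peaks in both. All 5 bookmarked peaks were among the 32 that were at or above the list's median width, or 15.6% of them (5.28% to 32.8%). Below it, 0 of 18 were bookmarked, which allows a share of up to 16.7%. In the whole list the shares above and below that width were 9.65% and 0.398%.

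**Figure D4:**
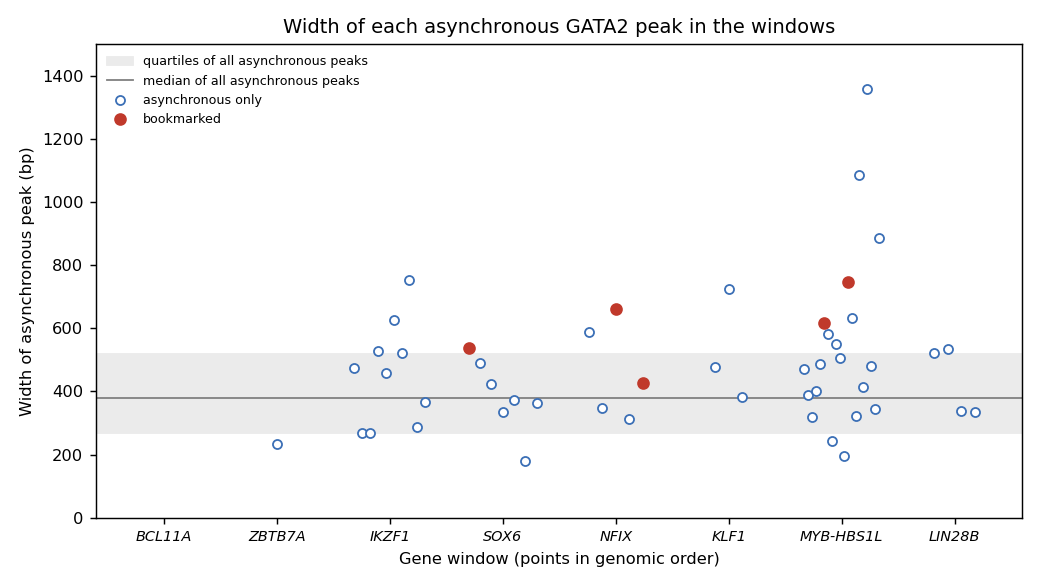
Width in bp of each of the 50 asynchronous peaks by window, in genomic order within a window; filled red points are bookmarked and open blue points asynchronous only, with the median and quartiles of all asynchronous peaks as a line and a grey band. The red points lie between 427 and 747 bp, above the line, while the 3 highest points, all in MYB-HBS1L, are open.

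Each peak was put in 1 class by its midpoint and the protein-coding annotation, first as promoter (within 3 kb of any start site), then as exon, then as intron, and otherwise as between genes. The promoter class therefore takes peaks that lie in an exon or intron near a start site, such as those in intron 1 of KLF1 and at LYL1. It held 15 of the 50 peaks, or 30% (17.9% to 44.6%) against 20.5% of the whole list. Of the peaks farther from a start site, 24 were in introns, or 48.0% of the 50 (33.7% to 62.6%) against 38.2%, and 11 were between genes. In exons there were 0, which allows a share of up to 6%, and the whole list had 1.98%. The class between genes made up 22.0% (11.53% to 36.0%), below the 39.4% of the whole list. The windows were drawn around genes, which by itself raises the share of peaks in or near them. The nearest start site was that of 1 of the 9 genes for 45 of the 50 peaks.

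Motif strings were compared in the central 200 bp of each peak, so that every sequence searched had the same length. GATA strings were found in 40 of 50 peaks, or 80.0% (66.3% to 90.0%), against 84.9% of all asynchronous peaks. The composite was found in 2.00% (0.0506% to 10.7%) against 6.31%, CACCC in 18.0% (8.58% to 31.4%) against 17.6% and RUNX in 6% (1.26% to 16.6%) against 8.49%. For ETS the shares were 16.0% (7.17% to 29.1%) and 8.55%, and for AP-1 8% (2.22% to 19.2%) and 7.69%. Each of the 6 intervals included the value of the whole list. In whole peaks, 47 of 50 held a GATA string, or 94.0% against 93.0% of the whole list, and 4 held the composite, or 8% against 8.55%. Of these 4, 1 was bookmarked and those of KLF1, HBS1L and IKZF1 were not.

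**Figure D5:**
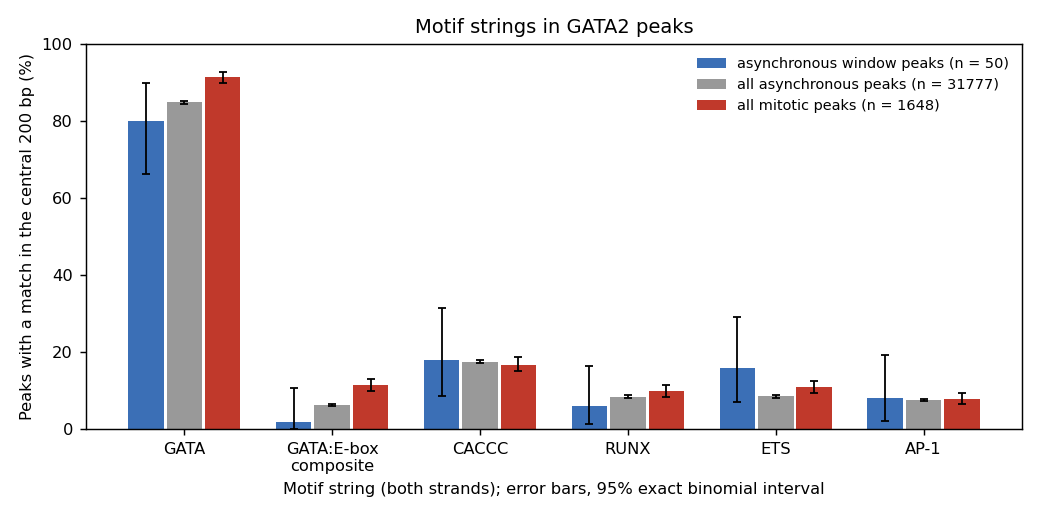
Share of peaks in % with each motif string in the central 200 bp, for the 50 asynchronous peaks of the windows (blue), all asynchronous peaks (grey) and all mitotic peaks (red); error bars are 95% exact binomial intervals. The blue error bars span the grey bar for all 6 strings.

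The list of other genes of the pathway holds 39 genes, and 37 of their windows had an asynchronous and 8 a mitotic peak, or 94.9% and 20.5%, against 76.0% and 11.7% of all protein-coding genes. No interval was computed for these shares, and the differences were not tested. The windows also differ in length, and a longer one has more room for a peak. The factors that bind DNA or partner such factors held most of the latter, with 6 of 12 windows. ZFPM1 (FOG1, the cofactor of GATA1) had 4 mitotic peaks among 17 asynchronous ones, and all 4 were nearest to ZFPM1 itself. NFIA, a nuclear factor I gene like NFIX, had the most asynchronous peaks of the list, 29, and 1 mitotic peak 33.5 kb upstream of its canonical start. Its window is long, and at 4.16 asynchronous peaks per 100 kb it stood below ZFPM1 (9.25), LMO2 (8.24) and other genes of the list. BACH1, a haem-regulated repressor, had 9 asynchronous peaks and 1 mitotic peak. That mitotic peak was 343.2 kb downstream of the canonical start, though nearest to a BACH1 start site. The mitotic peaks in the windows of GATA1, TAL1 and NR2C2 were nearest to other genes, HDAC6, PDZK1IP1 and MRPS25. Conversely, LMO2 had 11 asynchronous and 0 mitotic peaks in its window, but 1 mitotic peak outside the window was nearest to LMO2.

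Corepressors such as the NuRD complex are recruited by BCL11A and ZBTB7A. Of the 15 genes of the NuRD complex and related corepressors, 14 had an asynchronous peak in the window and 1, MTA2, a mitotic peak, which was nearest to TUT1. SIN3A had no peak. The 6 chromatin modifiers (DNMT1, KDM1A, RCOR1, EHMT1, EHMT2 and PRMT5) all had asynchronous peaks, up to 10 at RCOR1, and no mitotic peak. Among RNA-binding and signalling genes, EIF2AK1, which encodes the haem-regulated kinase HRI, had 1 mitotic peak 2.38 kb downstream of its start, and the LIN28B paralogue LIN28A had 1 asynchronous peak and no mitotic one. HIC2, a repressor of BCL11A, had no peak in either list.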

How the data were processed

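GATA2 ChIP-seq of K562 cells gave 1 asynchronous and 1 mitotic library. The input libraries were not analysed here. Per the study's methods, the authors aligned reads to hg38 with BWA 0.7.12, kept uniquely mapped reads, called peaks with MACS2 2.1.0 and Genrich 0.6.1 and removed blacklisted regions. How the callers were combined and which thresholds applied is not given in the sources used here. The deposited values are peak starts and ends in bp, with no score, and were used as hg38 positions. The depth per library is unknown, so calls between libraries may differ through depth alone.

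Members and gene lists were chosen with earlier results of these data known. Peaks were placed in windows, compared by shared bases (at least 1) and searched for strings in the hg38 reference. As a check of the build, no peak passed a chromosome end, and GATA strings were in the central 200 bp of 84.9% of asynchronous peaks against 32.7% of sequences 5 kb away. Shares of peaks in the set have 95% exact binomial intervals, and a count of 0 a limit of 3 counts. Shares of gene windows have no interval. No test was made between conditions. The text names all 9 genes, every mitotic peak, the widest peak and the peak nearest each start site. It also names the asynchronous-only peaks with the composite and each pathway gene with a mitotic peak. Other peaks and genes named were chosen after their values were seen. The overlap and GATA string steps were tested on simulated data, where 400 of 400 planted overlaps and 605 of 605 planted GATA strings were recovered. The planted mitotic peaks lay wholly inside asynchronous ones, so partial overlaps were not tested, and neither were the other strings. Python 3.11.15, pandas 2.3.3, scipy 1.17.1 and pysam 0.24.0 were used. The details of 1 bookmarked site in NFIX are not reported here.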

Additional observations from a re-analysis of the deposited data

How the results depend on the processing

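The windows, the overlap rule and the motif search were varied 1 at a time. The number of asynchronous peaks ranged from 37 for gene bodies alone to 65 with 100 kb on each side, and stayed within 1.5 times the 50 reported. Mitotic peaks fell from 5 to 3 for gene bodies alone, since the LYL1 site and the site between HBS1L and MYB lie outside them. With peaks given to the gene with the nearest start site there were 4. With 100 kb on each side there were 6, and IKZF1 then had a mitotic peak, 42.0 kb beyond its window of 50 kb. The bookmarked share stayed between 6% with reciprocal overlap of at least 50% (2.02% in the whole list) and 15.6% among peaks no narrower than the list's median. Under reciprocal overlap, the site in the HBS1L gene and the site inside NFIX no longer counted as bookmarked. The strings were sensitive to the search. The GATA share was 94.0% in whole peaks (93.0% in the whole list) and 66.0% with AGATAA and TGATAA alone (75.3%). The composite share rose to 12% (17.5%) when 7, 8 or 9 bases were allowed between CTG and GATAA. The CACCC share was 38.0% in whole peaks (30.4%) and 2.00% with CCACACCC and CCACGCCC alone (2.88%). The number of other pathway genes with a mitotic peak was 6 with 10 kb and 12 with 100 kb on each side, where 5.75% and 18.5% of all gene windows had one. Peaks per 100 kb moved by over 1.5 times at ZBTB7A (2.29 and 2.68 with 10 and 100 kb) and at KLF1 (8.78 with 10 kb). The order of the windows changed too. With 10 kb, KLF1 and IKZF1 (7.44) stood above MYB-HBS1L (6.46), and with 100 kb ZBTB7A stood above KLF1 (2.47) and LIN28B (1.15). Depth limits every statement on absent peaks. No paired analysis was possible because each condition has 1 library.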
